A study of Sus scrofa with 9 samples.

Results

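Cytochrome c oxidase, or complex IV, is the enzyme that azide blocks, and the RNA of its subunits and assembly factors was followed in pig blood around a single oral dose of azide. Probes were taken as members when the array's gene name was COX5A or COX7A2, or when the probe description contained the words cytochrome c oxidase. By this rule 22 of the 43603 non-control probes of a porcine 1-colour array were members. In 13 of them the signal stood well above background on every array of 1 or more groups, which allowed a test, and in 9 it did not; 11 were above background on all 9 arrays and 6 on none.

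Whole blood was drawn from male specific-pathogen-free (SPF) Clawn miniature pigs, bred for laboratory use, which in 2 of the 3 groups had been given 300 µg/kg azide by mouth. The groups were before feeding (0 h), 6 h after feeding and 24 h after feeding, with 3 arrays each. For age, the labels hold both 7 months and 7 weeks, and they do not name the azide salt. They do not say whether samples with the same replicate number came from the same animal, so p-values measure only the spread between these samples. There were no undosed animals at 6 h or 24 h, so the dose cannot be told apart from feeding, handling or time of day. Each group also lay on a slide and scan of its own, and slide cannot be told apart from time.

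Complex IV sits in the inner mitochondrial membrane, takes electrons from cytochrome c, passes them to oxygen and pumps protons as it does so. Its catalytic core, subunits 1 to 3, is encoded by mitochondrial DNA and carries the heme and copper centres, while the smaller subunits around it come from nuclear genes. Assembly factors outside the finished enzyme make heme A and deliver copper. Azide inhibits the protein itself, at the site where oxygen is reduced. Mature red cells have no mitochondria, and the complex IV RNA of blood comes from white cells, platelets and immature red cells. In whole blood, fewer cells of a type and less RNA per cell cannot be told apart.

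The members held 4 probes for nuclear subunits (COX5A, COX7A2, COX7A1 and a contig labelled COX6B2) and 2 for assembly factors (COX11 and COX15). Another 15 were labelled as subunit 1, 2 or 3 of any organism, called a mitochondrial label here, and 1 label names no subunit. All 6 nuclear gene probes were tested, against 7 of the 15 with a mitochondrial label: 4 of 8 for subunit 1, 0 of 1 for subunit 2 and 3 of 6 for subunit 3. Over the whole array 45.4% of probes were tested.

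How well a probe stands for its gene differed among the members, and stretches of the 60-base probes show the range. COX7A2, COX7A1 and COX5A carry the hexamer AATAAA, given in capitals, the commonest signal for cutting and polyadenylation near the 3′ end of a message.
COX5A, bases 11 to 40: cttggactttAATAAAagggaaatgagttt
COX7A2, bases 31 to 60: aactgccaccAATAAAgcatctttaccatg
COX7A1, bases 31 to 60: gtctgcaggacctcaacaagcatcAATAAA
COX11, bases 28 to 57: gggtcagcaaAATAAActgaatactacccg
In the strand as listed, AATAAA was in 6 of the 22 members (these 4, TC295311 and TC252123; the TC numbers are the array's names for assembled transcript contigs) and in 12.1% of all probes. On the opposite strand it was in COX7A2, in the subunit 2 contig TC297494 and in 4.63% of all probes, and 16.3% of all probes held it on either strand. COX7A2 and COX7A1 are described as pig messenger RNAs. The COX5A contig is named from bovine COX5A, of which it covers 59%.

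A pair of members shared a run of letters with each other and with further probes, shown in capitals.
COX6B2-labelled contig, bases 7 to 36: catatgctggGGGTGCAGCCataaaaacca
TC295311, labelled subunit 3, bases 11 to 40: atttccatatGGGTGCAGCCctaaaaacac
The run GGGTGCAGCC was in 12 probes of the array as listed and in 3 on the opposite strand, 0.0344% of all probes on either strand. Some run of 15 bases of the COX6B2-labelled probe recurred in 10 other probes, and of TC295311 in 11, against 2 each for COX5A and COX7A2. Signal from other transcripts with these letters was not tested, and both labels are uncertain: the first covers 22% of mouse COX6B2, the testis form of subunit VIb, and the second 7% of an annelid worm protein.

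The mitochondrial labels are weaker still. The contig named from pig subunit 2 (TC297494, 35% of that protein) and the one named from antelope subunit 3 (TC300438, 16%) were not well above background on any of the 9 arrays. All 7 tested contigs were named from proteins of other organisms, bacteria and insects among them, of which they cover 4% to 21%. TC258522 and TC252123 were named from bacterial proteins, so for them the term mitochondrial label rests on the subunit number alone. The starts of the probes are shown for the 3 contigs that differed most at 6 h.
TC258522, labelled subunit 3: gcctatgggaagaaagtcaatgaatgtttt
TC265274, labelled subunit 1: ccttgttcccactccttccaaaattacttc
TC243841, labelled subunit 1: cctagcttttcactagatagttcattacca
No genome was used, so whether these contigs come from the pig's mitochondrial DNA was not analysed here, and they are called labelled contigs throughout.

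On the arrays as a whole, 39.9% to 56.6% of spots were well above background, and before scaling the log2 75th percentile ran from 5.79 to 7.69, highest on the third 24 h array. Levels below are log2 processed signals minus the array's own 75th percentile, and a difference of 1 is a doubling. Differences are of group means (n = 3 each) with the standard error (SE) of the limma fit, and p-values were adjusted by Benjamini-Hochberg over the 19780 tested probes. With 3 arrays a group, 5 probes of the array passed an adjusted p of 0.05 at 6 h against before feeding (0.0253%), 0 at 24 h against before feeding (0%; 2745 had an unadjusted p under 0.05) and 0 at 24 h against 6 h (0%; 4270 unadjusted). Levels are not compared between probes.

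No member passed the adjusted threshold at 6 h, at 24 h or between these times. COX15 and TC252123 passed the filter through 1 group only, the group in which each is highest, so, as chosen after these values were seen, the counts here cover the 11 members above background on all 9 arrays and set them beside the 15801 probes of the array that were. At 6 h against before feeding 10 of the 11 had a lower mean, where 48.2% of these probes did, and the median difference was -0.43 against 0.03. An unadjusted p under 0.05 was reached by 4 lower and 1 higher (10.5% and 13.4% of these probes), and groups did not overlap for 5 lower and 1 higher (10.9% and 15.2%). At 24 h against before feeding 9 of 11 were lower (55.9%), with a median of -0.42 against -0.07. Unadjusted p was under 0.05 for 3 lower and 0 higher (9.32% and 2.75%), and 5 lower and 0 higher did not overlap (21.7% and 5.35%).

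Between 24 h and 6 h, 7 of 11 were lower at 24 h (59.7%), a count that became 4 with quantile normalization and 1 with spike-in centring. Unadjusted p was under 0.05 for 1 lower and 3 higher (15.1% and 6.22%), and the same numbers did not overlap (18.5% and 8.3%). Spike-in centring, which scales on added control RNA, raised the median of all tested probes to 0.28 at 6 h and 0.99 at 24 h. With it 8 of the 11 members were below 0 at 6 h and 0 at 24 h, and 10 and 9 were below that median. Spike-in centring moves all probes of an array by the same amount, so the place of a member against that median cannot change with it.

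**Figure D1:**
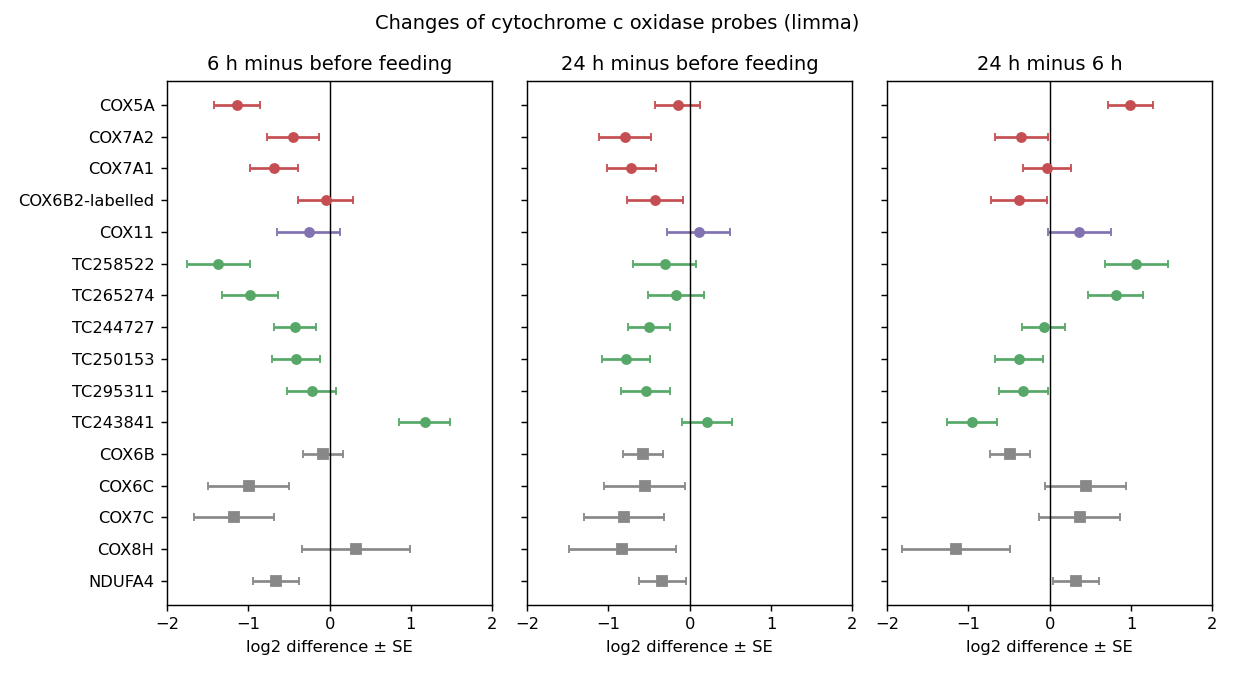
Log2 difference with the limma SE for the 11 members above background on all 9 arrays (circles: red nuclear subunits, purple an assembly factor, green contigs with a mitochondrial label) and 5 further complex IV genes (grey squares), 1 panel per comparison, n = 3 arrays a group. At 6 h 10 of the 11 circles lie below 0, COX5A at -1.14 and TC258522 at -1.37 among them, and TC243841 lies at 1.17.

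COX5A, a nuclear subunit on the matrix side of the enzyme, had the largest difference at 6 h of the 4 nuclear subunit members. Its level was 2.46, 2.03 and 2.40 before feeding, 1.00, 1.55 and 0.92 at 6 h, and 2.13, 1.98 and 2.33 at 24 h. All 3 arrays at 6 h lay below every array of both other groups, and the levels before feeding and at 24 h overlapped. The 6 h mean was 2.20-fold lower than before feeding (log2 difference -1.14, SE 0.28; limma adjusted p = 0.079). From 6 h to 24 h the difference was 0.99 with the same SE (limma adjusted p = 0.12), and 24 h lay 0.15 below the start (-0.15, SE 0.28). Without the second 6 h array, whose COX5A level was the highest of that group, both differences were larger and passed. They were -1.34 with a limma adjusted p of 0.025, and 1.19 with a limma adjusted p of 0.035. Passing was common without that array: 2396 and 1767 of the 19780 tested probes did so in these comparisons, against 5 and 0 with all arrays.

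COX7A2, the form of subunit VIIa made in most tissues, showed another course. It stood at 5.81, 6.29 and 5.57 before feeding, 4.99, 5.92 and 5.40 at 6 h, and 4.88, 5.31 and 5.08 at 24 h. The 6 h arrays overlapped both other groups, whereas every 24 h array lay below every array before feeding. The differences were -0.45 at 6 h and -0.80 at 24 h (SE 0.32 each), the latter a 1.74-fold lower mean with a limma adjusted p of 0.32. With spike-in centring the value at 24 h turned to 0.21, beside 0.99 for all tested probes. With quantile normalization the COX7A2 difference at 6 h was -0.79 and that of 24 h against 6 h was 0.13, so its lowest mean was then at 6 h.

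COX7A1 is the muscle and heart form of the same subunit, and its probe was above background in blood on all 9 arrays. Levels were 0.84, 0.85 and 0.34 before feeding, -0.26, 0.47 and -0.22 at 6 h, and -0.05, -0.22 and 0.15 at 24 h. The 24 h arrays lay below all arrays before feeding, and the second 6 h array overlapped them. Differences from before feeding were -0.68 at 6 h and -0.72 at 24 h (SE 0.30; limma adjusted p = 0.18 and 0.33), with -0.04 between the later times. Another pair of COX7A1 probes, outside the rule, gave -0.61 and -0.55 at 6 h and -0.83 and -0.37 at 24 h, the same direction as the member probe. Arrays of the first of this pair did not overlap the start at 24 h, but those of the second, the brightest COX7A1 probe, did. At 24 h the sign turned for the member probe under spike-in centring (0.29).

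The COX6B2-labelled contig stood at 6.97, 7.02 and 6.28 before feeding, 6.97, 6.05 and 7.09 at 6 h, and 6.45, 6.25 and 6.28 at 24 h. Its groups overlapped in every comparison, with differences of -0.05 at 6 h and -0.42 at 24 h (SE 0.34). The second 6 h array was the lowest of all 9 here, as it was for TC295311, the contig that shares the run shown above.

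Over the 4 nuclear subunit members the median difference was -0.57 at 6 h, -0.57 at 24 h and -0.19 between 24 h and 6 h; all 4 were lower than before feeding at both times. The COX6B2-labelled contig, whose label is uncertain, is 1 of the 4. Beside these medians stand those of all tested probes, at 0.05, -0.01 and -0.09. With spike-in centring the nuclear medians became -0.33, 0.43 and 0.58, and those of all tested probes 0.28, 0.99 and 0.68. That scaling moves both by the same amount, so the gap between them is fixed and adds no evidence.

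**Figure D2:**
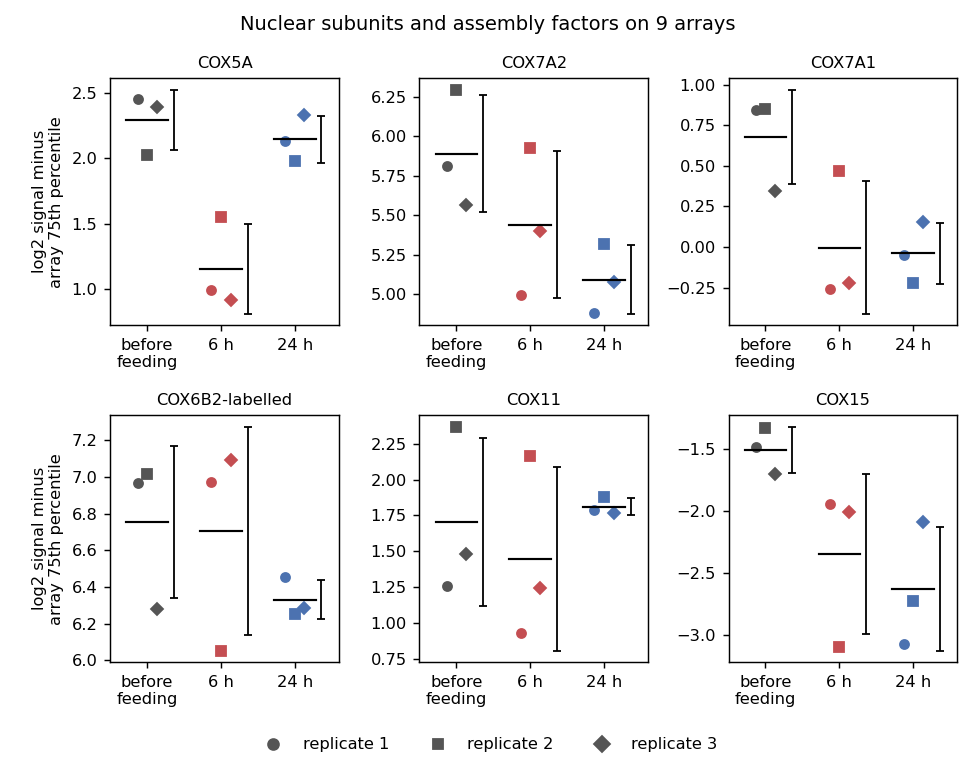
Level of the 4 nuclear subunit and 2 assembly factor members on each of the 9 arrays (points; shape gives the replicate number), with the group mean (line) and SD (bar to the right, n = 3); the vertical axis is log2 signal minus the array's 75th percentile and differs between panels. COX5A at 6 h (0.92 to 1.55) lies apart from both other times, while COX7A2 and COX7A1 at 24 h lie below all arrays before feeding.

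The assembly factor members were COX15 and COX11. COX15 makes heme A, the prosthetic group of subunit 1, and its contig covers 8% of the human protein. Its levels were -1.48, -1.34 and -1.71 before feeding, -1.94, -3.09 and -2.01 at 6 h, and -3.07, -2.73 and -2.09 at 24 h. The probe was well above background on 3 arrays before feeding but on 2 of 3 at each later time. Since it passed the filter only through the group in which it is highest, no difference, overlap of groups or test is given. COX11, which brings copper to the core, stood at 1.26, 2.37 and 1.48 before feeding, 0.93, 2.17 and 1.25 at 6 h, and 1.79, 1.88 and 1.77 at 24 h. Its groups overlapped throughout, with differences of -0.26 and 0.11 (SE 0.39), and the second array was the highest at every time.

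Among the 6 contigs with a mitochondrial label that were above background on all 9 arrays, 5 were lower at 6 h than before feeding and 5 at 24 h, with medians of -0.42 and -0.40. With spike-in centring 4 were lower at 6 h and 0 at 24 h, with medians of -0.19 and 0.60 beside 0.28 and 0.99 for all tested probes. TC258522 had the largest difference of any member: 2.69, 1.62 and 2.37 before feeding, 0.87, 1.53 and 0.18 at 6 h, and 2.01, 1.86 and 1.90 at 24 h. As with COX5A, all its 6 h arrays lay below all arrays of both other times. The 6 h difference was -1.37 (SE 0.39; limma adjusted p = 0.089), and 24 h stood 1.06 above 6 h (limma adjusted p = 0.16). Leaving out the second 6 h array, the highest of its group here, gave -1.70 (limma adjusted p = 0.028) and 1.40 (limma adjusted p = 0.049). Without it 2396 and 1767 of all tested probes passed in these comparisons.

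TC265274, labelled subunit 1, followed the same course, with 1.56, 0.68 and 1.27 before feeding, 0.31, 0.65 and -0.38 at 6 h, and 1.19, 0.86 and 0.96 at 24 h. The 6 h arrays again lay below all others, with the second 6 h array close to the second before feeding. Its difference was -0.98 at 6 h and 0.81 from 6 h to 24 h (SE 0.34; limma adjusted p = 0.13 and 0.21).

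TC243841, also labelled subunit 1, went the other way. It stood at 0.63, 0.79 and 0.80 before feeding, 1.95, 1.62 and 2.15 at 6 h, and 0.41, 1.00 and 1.45 at 24 h, so that the 6 h arrays lay above all others. The 6 h mean was 2.25-fold higher than before feeding (difference 1.17, SE 0.31, limma adjusted p = 0.082). Without the second 6 h array, the lowest of its group here, the limma adjusted p was 0.039, and 2396 of all tested probes passed. Contigs with the label of subunit 1 thus had opposite values at 6 h, 1.17 here and -0.98 for TC265274.

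Of the remaining 4 tested contigs, 3 had smaller differences at 6 h, from -0.43 to -0.22. TC250153, labelled subunit 1, had levels of -1.37, -1.47 and -1.38 before feeding, -1.56, -2.38 and -1.51 at 6 h, and -2.08, -2.36 and -2.13 at 24 h. Neither later group overlapped the arrays before feeding, and the 24 h difference was -0.79 (SE 0.29; limma adjusted p = 0.30), which turned to 0.22 with spike-in centring. TC244727, labelled subunit 1, lay between 0.60 and 0.82 before feeding, between -0.06 and 0.54 at 6 h, and between 0.14 and 0.33 at 24 h, also without overlap with the start. TC295311 overlapped at 6 h (-0.22) but not at 24 h (-0.54, SE 0.30; 0.46 with spike-in centring). TC252123, labelled subunit 3, was well above background on 1, 0 and 3 arrays of the 3 groups, so no difference or fold is given for it here.

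**Figure D3:**
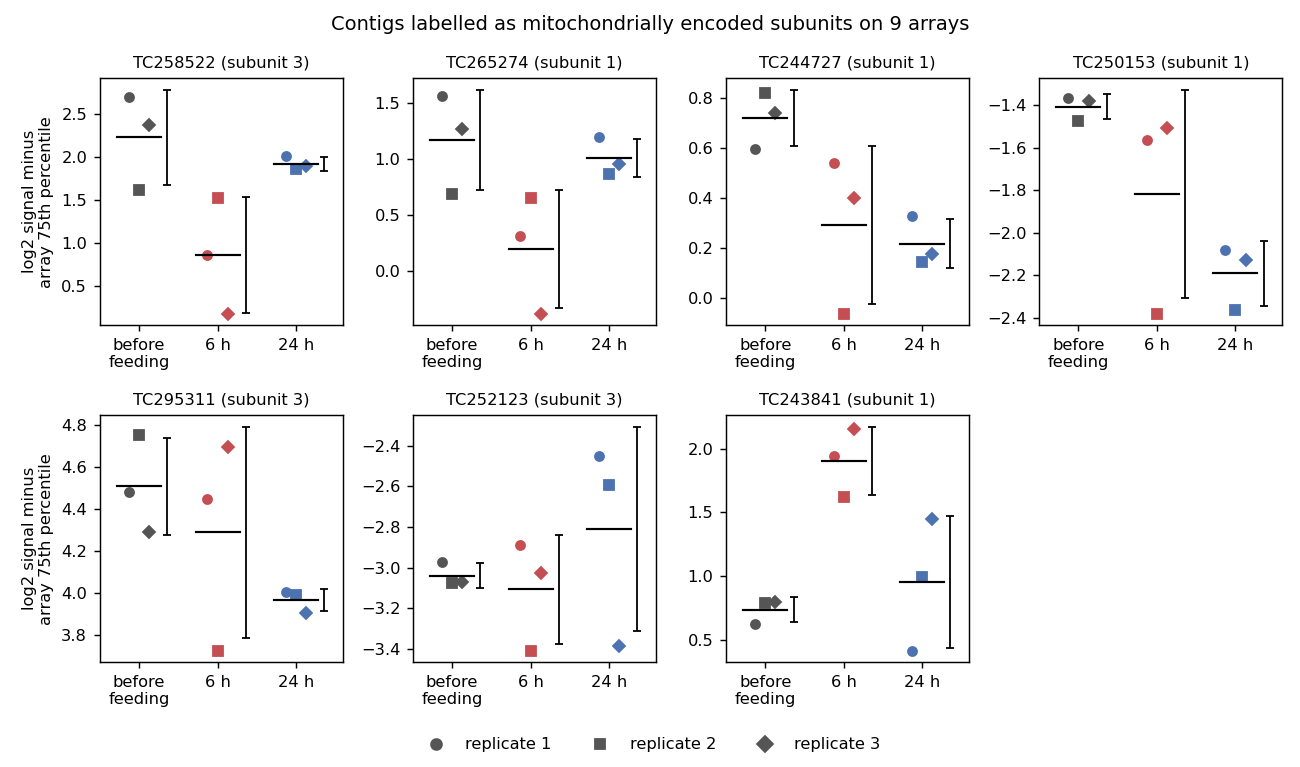
Level of the 7 tested contigs with a mitochondrial label on each of the 9 arrays (points, shape gives the replicate number), with group mean (line) and SD (bar, n = 3). The vertical axis is log2 signal minus the array's 75th percentile and differs between panels. TC258522 and TC265274 are lowest at 6 h, TC243841 is highest there, and TC250153 and TC244727 are below the start at both later times.

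None of the 9 untested members was above background on more than 2 arrays of a group. TC254369, labelled subunit 1, reached that level on 1, 2 and 1 arrays before feeding, at 6 h and at 24 h; TC276447 on 1 array at 6 h; and TC239029 on 1 array at 24 h. The other 6 did so on no array.

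Contigs named from other proteins of pig mitochondrial DNA were set beside them. The contig for NADH dehydrogenase subunit 6 (TC295843, 31% of the pig protein) stood at 1.02, 1.24 and 0.60 before feeding, 0.51, -0.64 and -0.03 at 6 h, and 0.16, -0.01 and 0.04 at 24 h. Its differences were -1.005 at 6 h and -0.89 at 24 h (SE 0.33; limma adjusted p = 0.11 and 0.30), without overlap with the start at either time. Of the 19780 tested probes 2093 at 6 h and 3751 at 24 h lay below the start in this way. For NADH dehydrogenase subunit 2 (TC296732) the differences were -0.62 and -0.30 (SE 0.29), without overlap at 6 h. Spike-in centring moves the 24 h differences of both contigs up as it does the median of all tested probes, from -0.01 to 0.99. The pig cytochrome b contig was above background on none of the 9 arrays, like that for pig subunit 2 of complex IV.

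Further nuclear subunits of complex IV were named outside the rule and give a second view of the enzyme. With 1 probe a gene, the 4 members and COX6B, COX6C, COX7C, COX8H and NDUFA4 were counted as 9 genes. The COX6B2-labelled contig, whose label is uncertain, is 1 of the 9. Of these, 8 were lower at 6 h and 9 at 24 h than before feeding, as were 9374 and 10067 of the 19780 tested probes. Medians were -0.66 and -0.57, and 6 and 0 of the 9 were lower with spike-in centring. An unadjusted limma p under 0.05 was reached by 4 and 3 of them, all lower (10.9% and 8.56% of all tested probes were lower at that p), and 0 passed the adjusted threshold. COX7A1 is counted by its member probe, which reached that p at both times. Its brightest probe, outside the rule, gave -0.55 and -0.37, with an unadjusted limma p of 0.15 and 0.32. With spike-in centring the median of the 9 genes at 24 h turned to 0.43, where that of all tested probes was 0.99. Between 24 h and 6 h, 5 of 9 were lower, with a median of -0.04, and the sign turned with other scalings: 2 of 9 and 0.20 with quantile normalization, 2 of 9 and 0.19 with the deposited values, and 1 of 9 and 0.74 with spike-in centring.

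COX7C, a small membrane-spanning subunit, had the largest difference of these at 6 h: 4.51, 3.53 and 3.24 before feeding, 1.97, 3.30 and 2.49 at 6 h, and 2.42, 2.57 and 3.88 at 24 h. The groups overlapped, and the difference was -1.18 (SE 0.50; limma adjusted p = 0.17). COX6C, another small subunit, had a pair of probes that went alike, at -0.996 and -0.97 at 6 h (SE 0.50 and 0.49), and within the 24 h group both genes were highest on replicate 3. NDUFA4, once counted to complex I and now to complex IV, gave -0.66 and -0.78 at 6 h on its probes (SE 0.29; limma adjusted p = 0.18 and 0.14).

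COX6B, the widely made form of subunit VIb, had 3 probes that disagreed in sign at 6 h (-0.08, 0.18 and -0.36) but not at 24 h (-0.57, -0.27 and -0.61), where its brightest probe did not overlap the start. COX8H, the heart and muscle form of subunit VIII, was above background on all 9 arrays with 3 probes and varied widely within groups. Its brightest probe stood at -0.93, 1.45 and -0.13 before feeding, -0.30, 1.31 and 0.35 at 6 h, and -1.44, 0.38 and -1.05 at 24 h. The second array was the highest at every time on that probe, and the 3 probes gave 0.32, 0.56 and 0.36 at 6 h with SE of 0.63 to 0.66. From 6 h to 24 h they differed by -1.15, -1.19 and -0.999, with overlapping groups and limma adjusted p-values of 0.31 to 0.39. PET100, an assembly factor, differed by 0.22 at 6 h and -0.19 at 24 h (SE 0.34).

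In the rest of the respiratory chain few listed genes had a named probe. All 8 tested genes listed for ATP synthase, which uses the proton gradient to make ATP, were lower at both times. Of the 19780 tested probes 9374 were lower at 6 h and 10067 at 24 h. The medians of the 8 genes were -0.57 at 6 h and -0.59 at 24 h, and 7 and 0 of them were lower with spike-in centring. At each time 2 had an unadjusted limma p under 0.05 (lower in 10.9% and 8.56% of all tested probes), and 0 passed the adjusted threshold. Examples are ATP5O at 6 h (-0.84) and ATP5I at 24 h (-0.88). The 3 tested genes of complex II (SDHA, SDHB, SDHD) had a median of 0.21 at 6 h and 0.30 at 24 h, and the 3 of complex I -0.09 and -0.20. Of 14 listed hypoxia response genes 4 were tested. SLC2A1, a glucose transporter, and PGK1, a glycolytic enzyme, were higher at 6 h by 1.04 and 1.03. Both had an unadjusted p under 0.05 (higher in 14.7% of all tested probes) but did not pass the adjusted threshold. ADM and HIF1A differed by 0.59 and -0.02 at 6 h, without reaching that unadjusted p. At 24 h all 4 were higher than before feeding, with a median of 0.75, and 0 reached it. TFAM, which packages and transcribes mitochondrial DNA, differed by -0.39 at 6 h and 0.62 at 24 h.

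Markers of blood cell types also stood at other levels at 6 h. The mean log2 level of 9 of 15 listed T cell genes was 2.40, 2.28 and 2.68 before feeding, 1.67, 2.13 and 1.02 at 6 h, and 2.32, 2.27 and 2.24 at 24 h; the 6 h arrays lay below all others, as for COX5A, and the second was again the highest of its group. Monocyte genes (6 of 12, CD14, LYZ and FCN1 among them) stood at 3.48, 3.56 and 3.96, then 5.52, 5.06 and 6.99, then 3.94, 4.27 and 5.35. Neutrophil genes (4 of 16: LTF, NCF1, MMP9 and ARG1) stood at 5.12, 5.34 and 5.29, then 7.40, 6.31 and 7.54, then 5.78, 5.76 and 5.33. At 6 h both lists lay above every array before feeding. By gene, 8 of 9 T cell genes were lower at 6 h (5 with an unadjusted p under 0.05, against 10.9% of all tested probes), 6 of 6 monocyte genes higher (6) and 3 of 4 neutrophil genes higher (2, against 14.7%), and 0 passed the adjusted threshold.

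The other cell types had few listed genes. NK and cytotoxic genes (3 of 10: KLRK1, GNLY and PRF1) had mean levels of 2.55, 3.23 and 3.88 before feeding, 1.83, 2.91 and 1.69 at 6 h, and 2.57, 3.19 and 2.39 at 24 h; all 3 were lower at 6 h, KLRK1 by the most (-1.98, SE 0.60; limma adjusted p = 0.10). The globin gene HBE1, 1 of 9 listed red cell genes, stood at 6.97, 7.51 and 7.15, then 6.78, 7.42 and 6.52, then 6.74, 6.67 and 5.47. Its 24 h arrays lay below all arrays before feeding (-0.91, SE 0.39, limma adjusted p = 0.34), as did those of 3751 of the 19780 tested probes. Platelet genes (3 of 8: ITGA2B, PPBP and SELP) overlapped between all times, with mean levels from 3.39 to 5.62. The part of these cell types in the complex IV differences was not tested.

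**Figure D4:**
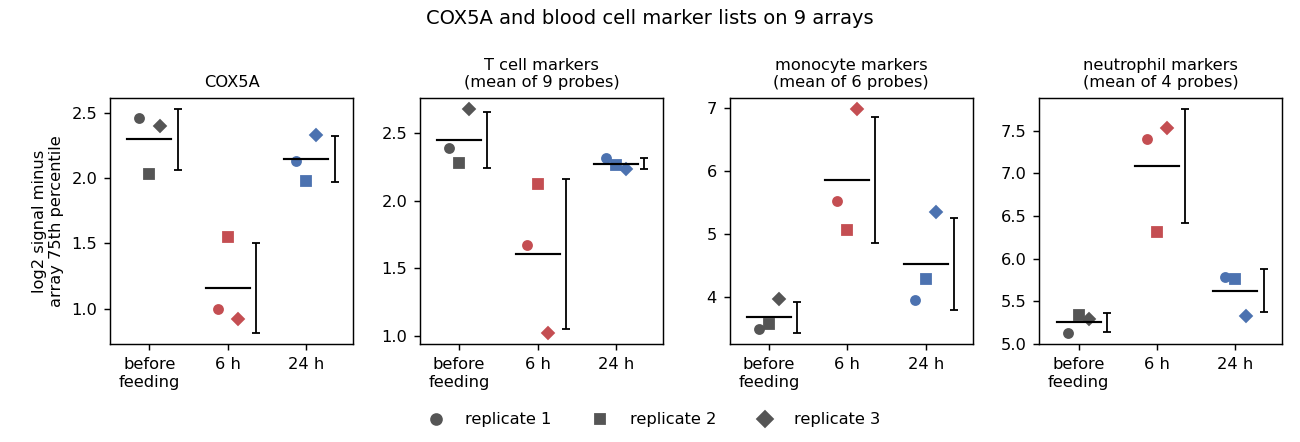
Level of COX5A and mean level of the T cell (9 probes), monocyte (6) and neutrophil (4) marker lists on each of the 9 arrays, with group mean (line) and SD (bar, n = 3); the vertical axis is log2 signal minus the array's 75th percentile and differs between panels. At 6 h COX5A and the T cell list are below all other arrays (0.92 to 1.55 and 1.02 to 2.13), and the monocyte and neutrophil lists are above all arrays before feeding.

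The genes whose levels followed COX5A most closely over the 9 arrays, among 1325 named genes, were STMN1 (Pearson r = 0.95), a microtubule regulator of dividing cells, PIGK (0.93), which attaches GPI anchors, ICOS (0.93), a costimulatory receptor of T cells, and PCNA (0.92), the sliding clamp of DNA replication. For COX7A2 they were CDC20 (0.93), a cell cycle regulator, SLC25A6 (0.93), a mitochondrial ADP/ATP carrier, EEF1G (0.92), a translation factor, and RPL6 (0.92), a ribosomal protein. These are the highest of 1325 values each, over arrays that also share groups and slides, and are given as a description.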

How the data were processed

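RNA from blood kept in PAXgene tubes was labelled with Cy3 and hybridised to Agilent porcine arrays, 1 sample each, per the labels' protocols. The deposited scanner files hold spot intensity, background-subtracted and not scaled between arrays per the file headers. A deposited table of all samples holds linear intensity, with a scaling by the authors not given in the sources used here. Agilent Feature Extraction has version 10.5.1.1 in the file headers but 9.5.3.1 per the submitters' processing notes.

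Control and outlier spots were left out, spots of a probe averaged, and log2 processed signal was centred on each array's 75th percentile (43596 probes with values). Probes whose 3 arrays of some group were well above background (19780) entered a limma fit of all 9 arrays with group as the term (limma 3.58.1, R 4.3.3; 6 residual and 4.61 prior degrees of freedom; Benjamini-Hochberg threshold 0.05). Symbols came from the files and the RefSeq tables for 3257 of 43603 probes; COX6B and COX8H were added to the complex IV genes after their names were seen. A gene outside the members has 1 probe, the tested one with the highest mean signal, others being given by range; every member gene was open to naming, listed genes by counts with up to 3 examples a direction. Members and lists were chosen with earlier results of these data known. The fit was tested on simulated data for 6 h against before feeding over 19780 probes, with 100 probes changed by each amount. It recovered 53% of changes of 2 (log2) and 2% of changes of 1. In the data 5051 probes had an unadjusted p under 0.05 in this limma comparison, so the adjusted threshold differs and these shares need not hold there. Alternatives were other scalings, background corrections, filters and fits, a replicate block and leaving out each array. Equal replicate numbers correlated at -0.20 to 0.64 in their deviations, not above 0.1 throughout, so they were not taken as pairs. Unequal numbers correlated at -0.62 to 0.43, below the highest values of equal numbers (0.64, 0.54 and 0.45). Whether equal numbers share an animal is thus not settled, and if they do, the main fit leaves that pairing out. Python 3.11.15, pandas 2.3.3, numpy 2.4.6 and matplotlib 3.10.9 joined files and drew plots; the R package data.table (version 1.17.8) read them.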

Additional observations from a re-analysis of the deposited data

How the results depend on the processing

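For the 13 tested members and 5 further complex IV genes, 54 differences were recomputed under 11 alternatives and with each of the 9 arrays left out, giving 1074 values. Of these, 1013 kept the direction and 61 did not, 26 of the latter with spike-in centring. Part of this agreement was fixed in advance, so the 1013 does not measure robustness. The other filters, the trend and robust fit, the fit of only the arrays compared and the replicate block leave a difference of group means unchanged. Leaving out an array of the group outside a comparison does so too. COX15 and TC252123 passed the filter through 1 group only and are partly at background elsewhere, so their values below are no test. With 3 arrays a group, differences under about 1 on the log2 scale are poorly measured. The causes of the changes below were not tested, except that spike-in centring moves all probes upwards at 24 h.

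Members past the threshold stayed at 0 in every comparison under the alternatives that kept all arrays, apart from 2 at 24 h against before feeding with spike-in centring (TC243841 at 1.22, limma adjusted p = 0.041, and TC252123 at 1.23, above background on 1 of 3 arrays before feeding and so no test). Adding the other probes named as complex IV genes left 0. Leaving out 1 array gave 0 to 3 at 6 h against before feeding and 0 to 2 at 24 h against 6 h, the highest in both cases without the second 6 h array.

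The 5 probes of the whole array past the threshold at 6 h against before feeding became 8 with quantile normalization and 8 with the deposited values, 672 with spike-in centring and 620 with the replicate block, which changed the call of no member. They became 0 with the percentile over detected probes, with normexp, with no filter, with probes detected on all 9 arrays only, with a trend and robust fit, and with only the arrays compared. With 1 array left out they ranged from 0 to 2396. At 24 h against before feeding the 0 became 6 with quantile normalization, 6 with the deposited values and 6190 with spike-in centring. At 24 h against 6 h it was 0 to 1767 with 1 array left out, the 1767 and the 2396 both without the second 6 h array.

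The nuclear subunit median, -0.57 at 6 h, was -0.33 with spike-in centring and -0.80 to -0.39 with 1 array left out. At 24 h, also -0.57, it was 0.43 with spike-in centring, -0.26 with normexp and -0.77 to -0.44 with 1 array left out. Between 24 h and 6 h, -0.19 became 0.16 with quantile normalization, 0.16 with the deposited values, 0.026 with the percentile over detected probes, 0.58 with spike-in centring, -0.024 with normexp, and -0.24 to 0.047 with 1 array left out, so its sign is not settled.

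Gene differences that changed sign with spike-in centring were, at 6 h, COX6B2-labelled (0.18), TC295311 (0.013), TC252123 (0.16) and COX6B (0.15). At 24 h against before feeding they were COX7A2 (0.21), COX7A1 (0.29), COX5A (0.86), COX6B2-labelled (0.58), TC244727 (0.50), TC250153 (0.22), TC265274 (0.84), TC295311 (0.46), TC258522 (0.70), COX6B (0.43), COX6C (0.45), COX7C (0.20), COX8H (0.18) and NDUFA4 (0.67). At 24 h against 6 h they were COX7A2 (0.43), COX7A1 (0.74), COX6B2-labelled (0.40), COX15 (0.49), TC244727 (0.70), TC250153 (0.40), TC295311 (0.45) and COX6B (0.28).

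Other sign changes lay at 24 h against 6 h with quantile normalization (COX7A2 0.13, COX6B2-labelled 0.20, TC295311 0.062, COX6B 0.025), the deposited values (0.13, 0.19, 0.066 and 0.016 for the same probes), the percentile over detected probes (COX7A1 0.18, TC244727 0.14), median centring (COX7A1 0.080, TC244727 0.040) and normexp (TC252123 -0.24). Normexp also turned COX6B2-labelled at 6 h (0.028), and COX5A (0.086) and TC252123 (-0.30) at 24 h against before feeding.

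Leaving out 1 array turned, at 6 h, COX6B2-labelled (-0.29 to 0.28), COX11 (-0.62 to 0.077), TC295311 (-0.42 to 0.063), TC252123 (-0.18 to 0.083), COX6B (-0.20 to 0.015) and COX8H (-0.21 to 0.98). At 24 h against before feeding it turned COX11 (-0.11 to 0.44), TC243841 (-0.034 to 0.48) and TC265274 (-0.41 to 0.029), and at 24 h against 6 h COX7A1 (-0.16 to 0.20), TC244727 (-0.25 to 0.048), COX6C (-0.11 to 0.77) and COX7C (-0.091 to 0.73). The COX5A difference at 6 h ranged from -1.34 to -1.02 and at 24 h against 6 h from 0.87 to 1.19. Over all alternatives its adjusted p in limma was 0.025 to 0.24 and 0.035 to 0.35.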

Other observations

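A further 28 probes have descriptions that say cytochrome oxidase without the c and lie outside the rule that chose the members. Of these, 17 were tested, 13 were well above background on all 9 arrays and 10 on none.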
